A study of Mus musculus with 10 samples.

Results

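Myelin is the membrane sheath that Schwann cells wrap around axons in peripheral nerve and that oligodendrocytes wrap around axons in the brain and spinal cord. Its compact layers are held together by membrane and basic proteins, while other proteins line the uncompacted channels, the membrane next to the axon or the outer membrane. The 8 genes Mbp, Pmp22, Prx, Mal, Cnp, Pllp, Mag and S100b were taken by name from the 46517 genes of the count tables. They encode proteins of the compact sheath (Mbp, Pmp22), membrane-sorting proteins (Mal, Pllp), proteins of the uncompacted and outer sheath (Cnp, Prx, Mag) and a calcium-binding protein used as a Schwann cell marker (S100b). Several are not confined to myelin: Pmp22 is also known as the growth arrest gene Gas3 of fibroblasts, Prx is made by some endothelial cells, and Mal and Pllp by epithelia.

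RNA was sequenced from 5 libraries of GFP+ and 5 of GFP- tumour cells, sorted from 5 allograft models of mouse malignant peripheral nerve sheath tumour (MPNST), a nerve sarcoma that arises from Schwann lineage cells. Each model, lettered A to E, gave 1 library of each population, so that 5 pairs were compared. GFP+ cells express the CGD transgene, whose parts and promoter the labels do not give, and GFP- cells do not express it. In all 10 libraries dead cells, and cells that the labels call wild type, had been gated out by flow cytometry. The labels give no strain, genotype, age or number of animals, nor whether a model is 1 tumour, so that the p-values measure the spread between these 5 models only.

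Libraries held 15978673 to 22082207 reads in genes, and a floor of 3 reads, set as the limit for a count of 0, corresponds to 0.136 to 0.188 CPM (reads of a gene per 1000000 reads in genes). Markers of the Schwann lineage (8 genes, S100b among them) summed to 4.20 to 321 CPM in GFP+ cells and 3.09 to 41.7 CPM in GFP- cells. Their lowest sums in both populations were in model E, and all 4 libraries of models A and E had at most 0.434 CPM of Sox10, the factor that specifies Schwann cells. Fibroblast markers (6 genes) summed to 16077 to 28994 CPM in GFP+ and 15990 to 31382 CPM in GFP- cells. Immune markers (10 genes) summed to 8.69 to 19.3 CPM in GFP+ and 7.71 to 20.9 CPM in GFP- cells. Cd68 made up most of these sums, with 6.28 to 15.6 CPM in GFP+ and 6.07 to 16.6 CPM in GFP- cells. Laptm5 had at most 2.36 CPM, Csf1r at most 1.70 CPM and Ptprc at most 0.453 CPM in any library. Endothelial markers (8 genes) summed to 2.61 to 9.49 CPM in GFP+ and 1.25 to 20.8 CPM in GFP- cells, and epithelial markers (8 genes) to 24.1 to 235 CPM in GFP+ and 4.94 to 264 CPM in GFP- cells. Neuron markers (6 genes) summed to 6.32 to 190 CPM in GFP+ and 3.04 to 106 CPM in GFP- cells, skeletal muscle markers (6 genes) to at most 3.18 CPM in any GFP+ and 16.5 CPM in any GFP- library, and erythroid markers (6 genes) to at most 0.434 CPM in any GFP+ and 1.19 CPM in any GFP- library. Keratins made up most of the epithelial sums, while Epcam had at most 4.39 CPM and Cdh1 at most 2.77 CPM in any library. Among neuron markers, Stmn2 ran from 3.57 to 175 CPM in GFP+ and from 0.597 to 84.6 CPM in GFP- cells. Syt1 had at most 19.1, Tubb3 3.02 and Snap25 2.12 CPM in any library, and Rbfox3 and Elavl3 at most 0.586 CPM. Pair D stood apart in the genes that mark sex. Xist, transcribed from the inactive X chromosome, had 103 CPM in the GFP+ library and 2.82 CPM in the GFP- library of that pair, and the Y-linked Ddx3y had 42.2 CPM in the GFP+ and 64.1 CPM in the GFP- library. In pair E, Ddx3y had 1.35 CPM in the GFP+ library and 0.108 CPM in the GFP- library. Values without pair D or E are given where they move a result.

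Sequences around the annotated starts were taken from RefSeq (GRCm38.p6, the assembly called mm10), 250 bases before to 50 bases after each start, and 12 such windows matched 7 of the 8 genes. The windows of the genes with the highest and with some of the lowest levels are shown, so that their CG dinucleotides, printed in capitals, can be compared. Pmp22 has 4 annotated starts, of which the most upstream and the most downstream are given.
Pmp22, chr11:63128732-63129031, plus strand: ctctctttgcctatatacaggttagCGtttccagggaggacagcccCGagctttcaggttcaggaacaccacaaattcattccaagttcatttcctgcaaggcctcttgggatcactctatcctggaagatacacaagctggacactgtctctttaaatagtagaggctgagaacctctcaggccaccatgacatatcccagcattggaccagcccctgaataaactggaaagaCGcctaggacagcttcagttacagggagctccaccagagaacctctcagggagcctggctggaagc
Pmp22, chr11:63132553-63132852, plus strand: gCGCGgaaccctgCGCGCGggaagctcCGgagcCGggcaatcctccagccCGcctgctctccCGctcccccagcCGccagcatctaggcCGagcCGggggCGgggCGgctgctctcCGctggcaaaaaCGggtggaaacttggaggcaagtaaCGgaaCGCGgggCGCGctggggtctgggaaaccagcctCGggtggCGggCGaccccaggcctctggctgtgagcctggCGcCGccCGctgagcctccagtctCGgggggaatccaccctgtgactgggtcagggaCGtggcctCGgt
Cnp, chr11:100574689-100574988, plus strand: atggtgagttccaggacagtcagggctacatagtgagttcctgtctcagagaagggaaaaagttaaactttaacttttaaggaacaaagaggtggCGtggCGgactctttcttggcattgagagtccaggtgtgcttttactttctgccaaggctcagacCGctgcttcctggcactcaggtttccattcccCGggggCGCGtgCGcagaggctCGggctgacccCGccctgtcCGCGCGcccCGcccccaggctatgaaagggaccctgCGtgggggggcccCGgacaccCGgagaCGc
S100b, chr10:76253586-76253885, plus strand: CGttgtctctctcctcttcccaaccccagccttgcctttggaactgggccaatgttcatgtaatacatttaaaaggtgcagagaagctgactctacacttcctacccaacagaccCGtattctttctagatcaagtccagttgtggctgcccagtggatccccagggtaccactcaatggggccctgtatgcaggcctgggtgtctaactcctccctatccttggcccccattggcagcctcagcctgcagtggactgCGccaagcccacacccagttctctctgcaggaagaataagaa

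The upstream window of Pmp22 held 3 CG dinucleotides and its most downstream window 30, against a median of 7 over 32851 promoter windows of the same length. The Cnp window held 17 and the S100b window 3. Among windows not printed, the other 2 of Pmp22 held 18 and 20, that of Pllp held 20, that of Mal 8, that of Prx 3 and the 3 windows of Mag 3, 6 and 3. A count of 3 was thus found both at genes with reads in every library (Prx, and the upstream start of Pmp22) and at genes with libraries at 0 (Mag, S100b). The GC box GGGCGG, searched on both strands, was present 3 times in the most downstream Pmp22 window and 3 times in another of its windows, with overlapping matches in both, 3 times in the Pllp window and 2 times in the Cnp window, and in 35.7% of all windows. The SOX core ACAAAG, on either strand, was present in the Cnp window at -167 (the annotated start being 0) and in 2 overlapping Mag windows, and in 18.7% of all windows. The E-box CANNTG, which reads the same on both strands, was present in 72.3% of all windows and in the printed Cnp and S100b windows once each. The other SOX core searched, ACAATG (12.6% of all windows), the TATA box TATAAA (13.6%) and the EGR motif GCGTGGGCG (0.612%), each on both strands, were not found in these 12 windows. Such matches describe the letters of the windows and are not binding sites.

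Per kilobase of exon, the means of the 8 genes over the 10 libraries lay between 37.7 CPM (Pmp22) and 0.0211 CPM (Mag). Pmp22 was the most abundant, at 34.6 ± 14.1 CPM per kb in GFP+ and 40.7 ± 11.1 CPM per kb in GFP- cells (SD, n = 5 each), above 95.4% of the 25598 genes with a read and an annotated length. Cnp followed with 5.42 ± 1.61 CPM per kb in GFP+ and 4.28 ± 1.32 CPM per kb in GFP- cells, and Prx with 3.37 ± 1.52 CPM per kb in GFP+ and 2.98 ± 1.36 CPM per kb in GFP- cells (SD, n = 5 each). Pllp, at 0.821 ± 0.594 CPM per kb in GFP+ and 0.490 ± 0.262 in GFP- cells, and Mbp, at 0.377 ± 0.174 in GFP+ and 0.349 ± 0.178 in GFP- cells, stood near the middle of all expressed genes (50.4% and 45.6% of genes lay below them).

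The 3 remaining genes were near or at 0 in many libraries. S100b averaged 0.345 CPM per kb over 10 libraries but had a read in 5 of them. Mal averaged 0.0366 and Mag 0.0211 CPM per kb, each with a read in 4 of 10 libraries. Of the neighbours in this order, Pmp22 was above Cnp and Prx above Pllp in 10 of 10 libraries. Cnp was above Prx in 8 of 10, Pllp above Mbp in 7 and Mbp above S100b in 8, and the difference of their means was smaller than the larger of the 2 SDs for Pllp against Mbp, for Mbp against S100b, for S100b against Mal and for Mal against Mag.

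**Figure D1:**
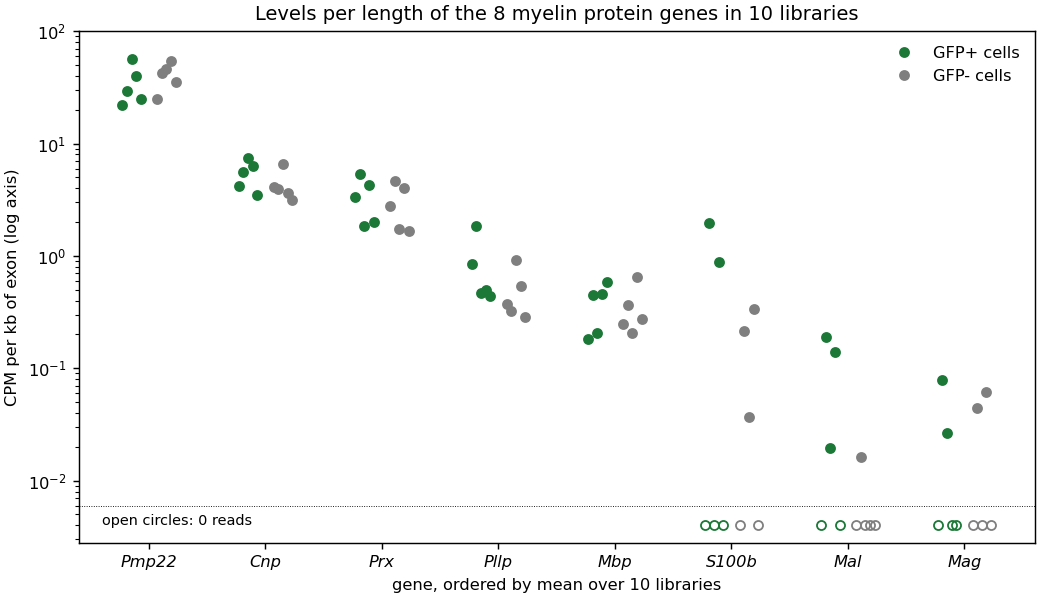
Level of each of the 8 genes in CPM per kb of exon (vertical log axis) in 5 GFP+ libraries (green) and 5 GFP- libraries (grey), with libraries of 0 reads drawn as open circles at the bottom. Pmp22 lies above the other 7 genes in every library, and S100b, Mal and Mag have libraries without a read.

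The paired design sets GFP+ cells, which express the transgene, against the GFP- cells of their own tumour model. None of the 5 myelin protein genes that could be tested passed the threshold. Of these 5, 4 lay above 0 and Pmp22 below 0, beside 49.3% of all tested genes above 0. The differences of single pairs were larger, as in S100b and Pllp of model B, which were 9.24-fold and 5.64-fold higher in the GFP+ library than in the GFP- library. The counts of 5 of the 8 genes passed the filter on low counts (filterByExpr) and were tested by edgeR's quasi-likelihood test with the model as a block, and 0 of 5 had a Benjamini-Hochberg adjusted p under 0.05. Over all 13986 tested genes 0 did as well (0%). At an unadjusted p under 0.05 there were 0 of the 5, against 8.99% of all tested genes (1257 genes), and DESeq2 with the same block called 0 of the 5 and 195 of 13714 genes (1.42%). The median log2 difference, GFP+ minus GFP-, was 0.15 over the 5 genes and -0.0028 over all tested genes. The median absolute difference was 0.30 over the 5 genes and 0.12 over all tested genes, with a median SE of 0.13 in both. Beside these values, 7 of 7 tested Schwann lineage markers lay above 0 (median log2 1.49, 6 of them at an unadjusted p under 0.05, and 0 at an adjusted one by edgeR), and DESeq2 called 2 of them, Sox10 (adjusted p = 1.4e-14) and Erbb3 (adjusted p = 0.0102). Their 3 smallest p belonged to Sox10 (3.61, SE 0.40), Foxd3 (1.38, SE 0.38) and Erbb3 (2.24, SE 0.63). Of 6 fibroblast markers 5 lay below 0 (median -0.34), and DESeq2 called Pdgfra lower in GFP+ cells (adjusted p = 0.00852). The part of either marker list in the myelin protein genes was not tested. In bulk libraries such as these, fewer cells with a transcript and less of it per cell cannot be told apart.

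Pmp22 encodes a small membrane protein of compact peripheral myelin, whose dosage underlies Charcot-Marie-Tooth disease (ENSMUSG00000018217, mm10 chromosome 11, 63128982 to 63159547, plus strand). It was at 51.7, 68.9, 134, 93.9 and 58.97 CPM in GFP+ cells of models A to E, against 58.8, 101, 109, 128 and 83.6 CPM in GFP- cells. The GFP+ value was the lower one in models A, B, D and E and the higher one in model C, and the populations overlapped across models. The fitted log2 difference was -0.31 (SE 0.13, 95% interval -0.62 to 0.0021, unadjusted p = 0.0512, adjusted p = 0.558 by edgeR). Within each pair the counting error was small: the 95% counting interval of the log2 ratio did not include 0 in 5 of 5 pairs, with values of -0.18, -0.55, 0.30, -0.44 and -0.50 from A to E. The pairs thus differed in direction by more than counting error, and without pair C the log2 difference was -0.46 (SE 0.10, adjusted p = 0.326).

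Cnp encodes the cyclic nucleotide phosphodiesterase of uncompacted myelin (ENSMUSG00000006782, chromosome 11, 100574904 to 100591729, plus strand). It was at 15.2, 20.5, 27.1, 23.2 and 12.7 CPM in GFP+ cells of models A to E, against 14.9, 14.4, 23.8, 13.3 and 11.5 CPM in GFP- cells. The GFP+ value was the higher one in every pair, although in pair A the difference was 0.03 on the log2 scale by library totals and -0.0027 after TMM scaling. Models B and D set the populations furthest apart, with log2 ratios of 0.51 and 0.81, and in the other 3 pairs the counting interval of the ratio included 0 on that scale. The fitted log2 difference was 0.30 (SE 0.13, 95% interval -0.0054 to 0.61, adjusted p = 0.564 by edgeR). Without pair D, the pair whose populations differed in Xist, it was 0.19 (adjusted p = 0.912 by edgeR). The exons of Cnp share 154 bases with those of Dnajc7 on the opposite strand, where 60.3% of the stranded reads at Cnp lay, and the part of Dnajc7 in the Cnp counts was not tested.

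Prx encodes periaxin, a scaffold of the outer Schwann cell membrane (ENSMUSG00000053198, chromosome 7, 27499324 to 27520214, plus strand). It was at 18.6, 30.1, 10.2, 24.02 and 11.1 CPM in GFP+ cells of models A to E, against 15.4, 26.04, 9.69, 22.7 and 9.27 CPM in GFP- cells. The GFP+ value was the higher one in 5 of 5 pairs, by a small step beside the spread between models. The fitted log2 difference was 0.15 (SE 0.10, 95% interval -0.08 to 0.37, adjusted p = 0.690 by edgeR), and the exact two-sided sign-flip permutation test over the 5 pairs gave p = 0.0625, the smallest that 5 pairs allow. Prx was the 1 gene of the 5 tested whose 5 pairs shared a direction after TMM scaling, which 9.8% of all tested genes did. Over all tested genes 5.12% were higher in GFP+ cells in 5 of 5 pairs (1 of the 5 myelin protein genes) and 4.68% were lower (0 of the 5).

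Pllp encodes plasmolipin, a proteolipid of myelin and epithelia (ENSMUSG00000031775, chromosome 8, 94674894 to 94696278, minus strand). It was at 1.78, 3.83, 0.978, 1.04 and 0.917 CPM in GFP+ cells of models A to E, against 0.771, 0.679, 1.93, 1.13 and 0.597 CPM in GFP- cells. GFP+ cells of model B stood above the other 9 libraries, and in model C the GFP- cells had the higher value. The pair B ratio was 5.64-fold (72 against 15 reads, 95% counting interval 3.21 to 10.6), that of pair A 2.31-fold (1.21 to 4.58) and that of pair C 0.508-fold (0.271 to 0.921). The fitted log2 difference was 0.62 (SE 0.49, 95% interval -0.52 to 1.77, adjusted p = 0.750 by edgeR), and it was 0.13 without pair B and 1.06 without pair C. The antisense gene Gm45767 shares 1128 exon bases with Pllp, and 8.96% of stranded reads at Pllp lay on that strand.

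Mbp encodes myelin basic protein, which compacts the sheath, and also yields Golli transcripts in other cells, which counts per gene cannot separate (ENSMUSG00000041607, chromosome 18, 82475146 to 82585637, plus strand, 16 annotated transcripts). It was at 1.56, 3.83, 1.74, 3.89 and 4.92 CPM in GFP+ cells of models A to E, against 2.11, 3.08, 1.76, 5.51 and 2.33 CPM in GFP- cells. Its direction was mixed, with GFP+ cells higher in pairs B and E and lower in A, C and D. The fitted log2 difference was 0.06 (SE 0.28, 95% interval -0.58 to 0.71, adjusted p = 0.974 by edgeR), and without pair E, where 102 reads stood against 43, it was -0.22 (SE 0.24, adjusted p = 0.826). Without pair D it was 0.23 (SE 0.30, adjusted p = 0.966 by edgeR).

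**Figure D2:**
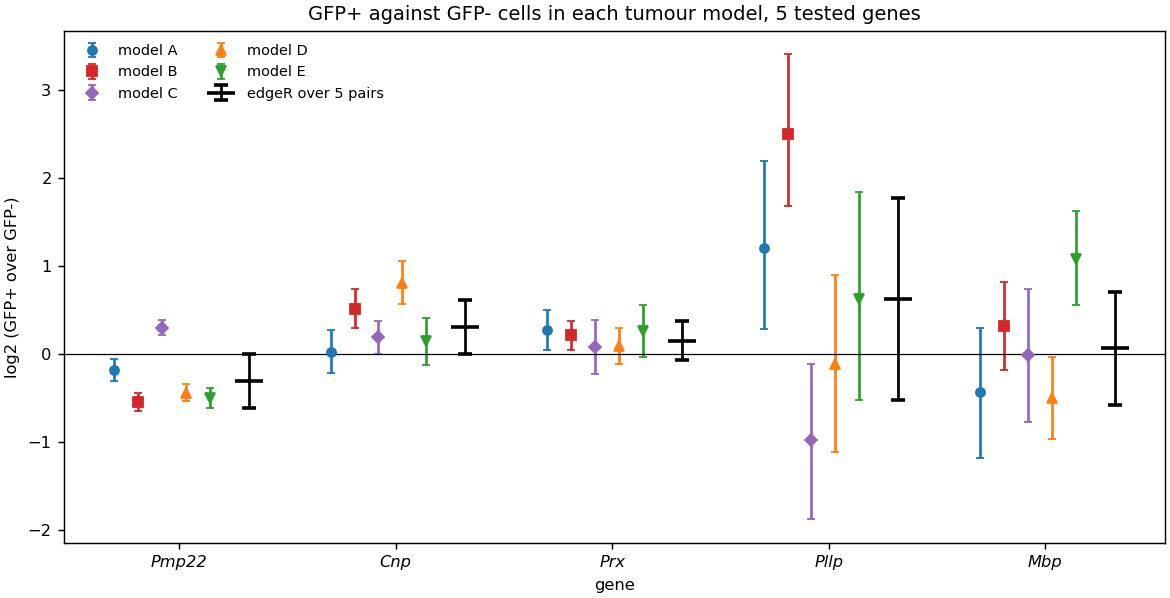
Log2 ratio of CPM in GFP+ over GFP- cells (vertical axis) for the 5 tested genes in each of the 5 models, with 95% counting intervals, and the edgeR estimate over the 5 pairs with its 95% interval in black. Prx is above 0 in each model, Pmp22 is below 0 except in model C, and the pairs of Pllp and Mbp lie on both sides of 0.

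The genes that the filter removed were read from their counts. S100b (ENSMUSG00000033208, chromosome 10, 76253853 to 76261159, plus strand) had 0, 55, 0, 24 and 0 reads in GFP+ cells of models A to E, against 0, 7, 1, 8 and 0 reads in GFP- cells. Its reads lay almost wholly in models B and D, where GFP+ cells had the higher level: 2.93 against 0.317 CPM in B and 1.32 against 0.501 CPM in D. The ratio was 9.24-fold in B (95% counting interval 4.20 to 24.05) and 2.63-fold in D (1.14 to 6.77). Model C had 0 reads of S100b in GFP+ cells and 1 read in GFP- cells, while Sox10 had 52.6 CPM in the GFP+ and 7.65 CPM in the GFP- library of that model. Over the 5 pairs the exact two-sided sign-flip permutation test gave p = 0.5, with a mean log2 difference of 0.67 ± 1.35 (SD, n = 5 pairs) that was 0.15 without pair B. Pairs A and E, with 0 reads in both libraries, could not lower that p and entered the mean as 0. Pair C entered it as -0.61, a value that rests on 1 read and the prior count of 2. Reads on the opposite strand were 14.4% of the stranded reads at S100b.

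Mal encodes a proteolipid that sorts membrane into myelin rafts (ENSMUSG00000027375, chromosome 2, 127633226 to 127656695, minus strand). It had 0, 10, 1, 7 and 0 reads in GFP+ cells of models A to E, against 0, 1, 0, 0 and 0 reads in GFP- cells. GFP+ cells held 18 of its 19 reads, and 17 of those lay in models B and D, the same 2 models as for S100b. The pair B ratio was 11.8-fold with a 95% counting interval of 1.67 to 510.3, and the exact two-sided sign-flip permutation p over 5 pairs was 0.25. Pairs A and E held no read, and 0.25 is the smallest p that the remaining pairs allow. The mean log2 difference of 0.96 ± 1.07 (SD, n = 5 pairs) was 0.66 without pair D and 0.68 without pair B. Pair C entered this mean as 0.59, from 1 read, and pairs A and E as 0. Markers of oligodendrocytes (8 genes) summed to 17.6 CPM in the GFP+ library of model B and 2.40 CPM in its GFP- library, and to at most 2.25 CPM in the other 8 libraries. The largest of them was Olig1, with 8.73 CPM in the GFP+ and 0.996 CPM in the GFP- library of model B. Mog, a defining gene of mature oligodendrocytes, had at most 0.0906 CPM in any library and Ermn had no read. The part of these markers in the values of S100b, Mal and Pllp in model B was not tested.

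Mag encodes the adhesion protein of the myelin membrane facing the axon (ENSMUSG00000036634, chromosome 7, 30899176 to 30914873, minus strand). It had 0, 6, 2, 0 and 0 reads in GFP+ cells of models A to E, against 0, 4, 0, 4 and 0 reads in GFP- cells, 8 reads in each population. No difference was detectable at this depth. In a fit with no filter on low counts, edgeR gave adjusted p of 0.568 for S100b, 0.549 for Mal and 0.999 for Mag, with unadjusted p of 0.0243, 0.0223 and 0.953. In that fit the unadjusted p of Pmp22 was 0.0259 (adjusted p = 0.577 by edgeR).

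**Figure D3:**
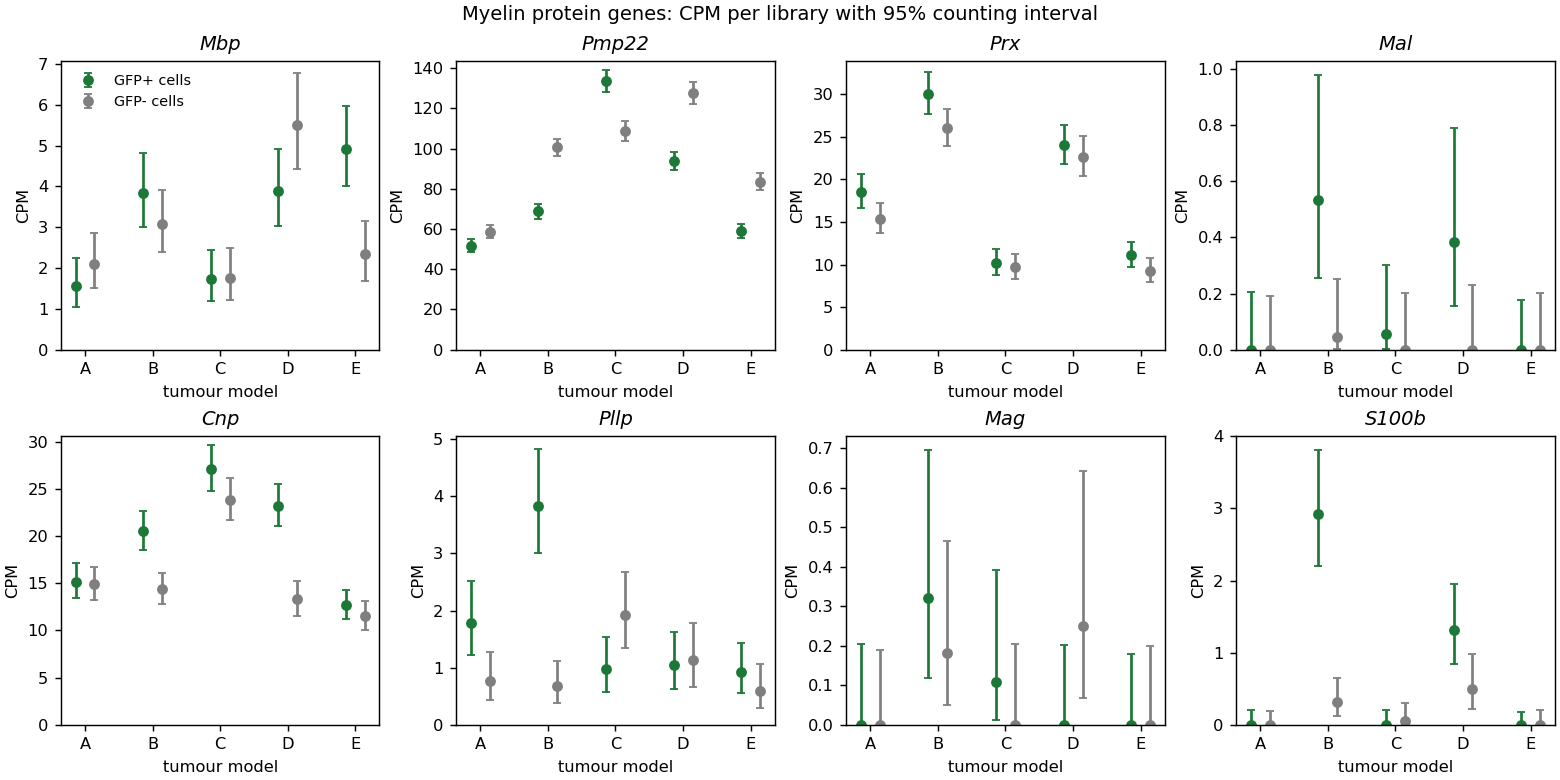
CPM of each of the 8 genes (vertical axes from 0) in GFP+ cells (green) and GFP- cells (grey) of tumour models A to E, with the 95% exact binomial counting interval of each library. Pmp22, Prx, Cnp and Mbp have reads in every library and differ in level between models. S100b and Mal have reads mainly in GFP+ cells of models B and D, and Mag has at most 6 reads in any library.

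By model, with 1 library per population, the levels are descriptions. Of the sum of squares of log2(CPM + 0.5) over 10 libraries, the model took 97.4% for Prx, 79.7% for Pmp22, 77.5% for Mbp, 71.7% for Cnp and 24.8% for Pllp. The population took 2.12% for Prx, 8.88% for Pmp22, 0.575% for Mbp, 16.4% for Cnp and 16.2% for Pllp. With 5 models against 2 populations, the model takes the larger share on average even where neither has an effect. The shares of model and population can therefore not be set directly against each other, and carry no test. Prx was highest in model B (mean of both libraries 28.1 CPM) and D (23.3 CPM), then A (17.0 CPM), E (10.2 CPM) and C (9.95 CPM), a range of 2.82-fold, and the libraries of E and C overlapped. Pmp22 was highest in C (121 CPM) and D (111 CPM), then B (84.8 CPM), E (71.3 CPM) and A (55.2 CPM), with overlap between C and D, D and B, and B and E. Cnp was highest in C (25.5 CPM) and lowest in E (12.1 CPM), and Mbp highest in D (4.70 CPM) and lowest in C (1.75 CPM). Model C therefore held the highest Pmp22 and Cnp and the lowest Prx and Mbp, and no 2 of the 5 tested genes had the same order of models. S100b, Mal and Mag were each highest in B, then D, then C, with 0 reads in both libraries of A and of E.

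Between the 5 tested genes, Pearson's r of log2 CPM over the 10 libraries ran from -0.33 (Mbp and Cnp) to 0.47 (Mbp and Prx). With Sox10 it was 0.84 for Cnp, 0.58 for Pmp22, 0.36 for Pllp, 0.27 for Prx and 0.18 for Mbp. These values describe 10 libraries that come in 5 pairs and are not independent, and carry no test. The tested genes whose pattern over these libraries was most like that of Prx were Gprasp1 (r = 0.99), Neurl1a (0.98) and Srgap1 (0.98). For Cnp they were Srpk1 (0.96), Zfp37 (0.94) and Rras2 (0.94). For Pmp22 they were Tubd1 (0.93), C030014I23Rik (0.92) and Oas1c (0.92), for Mbp Gm15728 (0.95), Psmb6 (0.92) and Has3 (0.92), and for Pllp Mtss1 (0.91), Nfxl1 (0.90) and Bahd1 (0.89). None of the 8 myelin protein genes was among these 15. They were picked as the best matches among 13986 tested genes, so that a high r alone says little. Several had low levels: Gm15728, Oas1c, Has3 and C030014I23Rik averaged 0.888, 1.26, 1.27 and 1.96 CPM.

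Of other genes of the myelin membrane, more lay above 0 than below, with 0 past the adjusted threshold by edgeR. Of 21 such genes 12 were tested, 9 above and 3 below 0, with a median log2 difference of 0.29, beside 49.3% of all tested genes above 0. At an unadjusted p under 0.05 there were 4 higher and 0 lower, beside 5.5% higher and 3.49% lower among all tested genes. The adhesion genes Cadm4 (log2 1.56, SE 0.48) and Jam3 (0.28, SE 0.10) had the smallest p, and DESeq2 called Cadm4 (adjusted p = 0.0166). Pmp2, a fatty acid binding protein of peripheral myelin, had no read in any library.

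Families related to the 8 genes by sequence or by contact had medians near 0. In the PMP22 and EMP family 5 of 6 genes were tested, 3 above and 2 below 0 (median 0.0025), and Emp2 (-0.47, SE 0.16) had the smallest p and was lower in GFP+ cells in 5 of 5 pairs. The others were Tmem47 (-0.11), Emp3 (0.11), Perp (0.30) and Emp1 (0.0025), and Lim2 had no read. In the MAL, plasmolipin and CMTM family 8 of 11 were tested, 3 above and 5 below 0 (median -0.02), and among S100 genes 7 of 12, 4 above and 3 below (median 0.02). The smallest p belonged to Cmtm4 (0.19), Myadm (0.24), Cmtm3 (-0.04) and Marveld1 (-0.03) in the MAL family and to S100a4 (-0.47), S100a13 (-0.17), S100a1 (-0.24) and S100a10 (0.16) among S100 genes. Of the 8 genes of the periaxin and dystroglycan complex, 4 lay above and 4 below 0 (median 0.01). Its smallest p belonged to Dmd, the dystrophin gene (0.61, SE 0.20), and Slc9a3r1 (0.84, SE 0.31), then Sgcb (-0.25) and Ezr (0.23), while Drp2, the direct partner of periaxin, differed by -0.08 (SE 0.20). For 0 of the genes in these 4 families was the adjusted p under 0.05 by edgeR or by DESeq2.

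Regulators of myelination lay on both sides of 0. Among 17 tested activators of 19, 9 lay above and 8 below 0 (median 0.0041), with 4 higher and 1 lower (Nab2, -0.26) at an unadjusted p under 0.05 by edgeR and 0 at an adjusted one. Over all tested genes 49.3% lay above 0, with 5.5% higher and 3.49% lower at that unadjusted p, and DESeq2 called 1.42%. Sox10 (3.61, SE 0.40), the Schwann cell ligand Lgi4 (2.50, SE 0.39), the neuregulin receptor Erbb3 (2.24, SE 0.63) and Pou3f1 (1.95, SE 0.56) had the smallest p, and DESeq2 called the first 3. Egr2, the main activator of peripheral myelin genes, was at 6.11, 22.6, 26.1, 21.6 and 28.6 CPM in GFP+ cells of models A to E, against 4.99, 35.01, 44.97, 29.6 and 12.9 CPM in GFP- cells. Its log2 difference was -0.15 (SE 0.29, adjusted p = 0.928 by edgeR). Egr2 was thus lower in GFP+ cells of models B, C and D, but not of A or E. The inhibitors of myelination and genes of immature Schwann cells had 9 of 12 tested values above 0 (median 0.21, 14 genes in all), led by L1cam (2.07, SE 0.76), Gap43 (0.93, SE 0.36) and Ncam1 (0.28, SE 0.11), with Ednrb at -0.43 (SE 0.20). Genes of myelin lipid synthesis lay on both sides of 0, 8 above and 10 below (18 of 20 tested, median -0.04), with Ugt8a, which makes galactosylceramide, at 0.95 (SE 0.33) and levels of 2.77 CPM or less, Scap at -0.17 (SE 0.07), Cyp51 at -0.30 and Cers2 at 0.19. Node and paranode genes had 6 of 10 tested values above 0 (12 genes in all, median 0.09), led by Nrcam (0.79, SE 0.18), then Dlg1 (-0.38) and Cadm2 (-0.38).

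**Figure D4:**
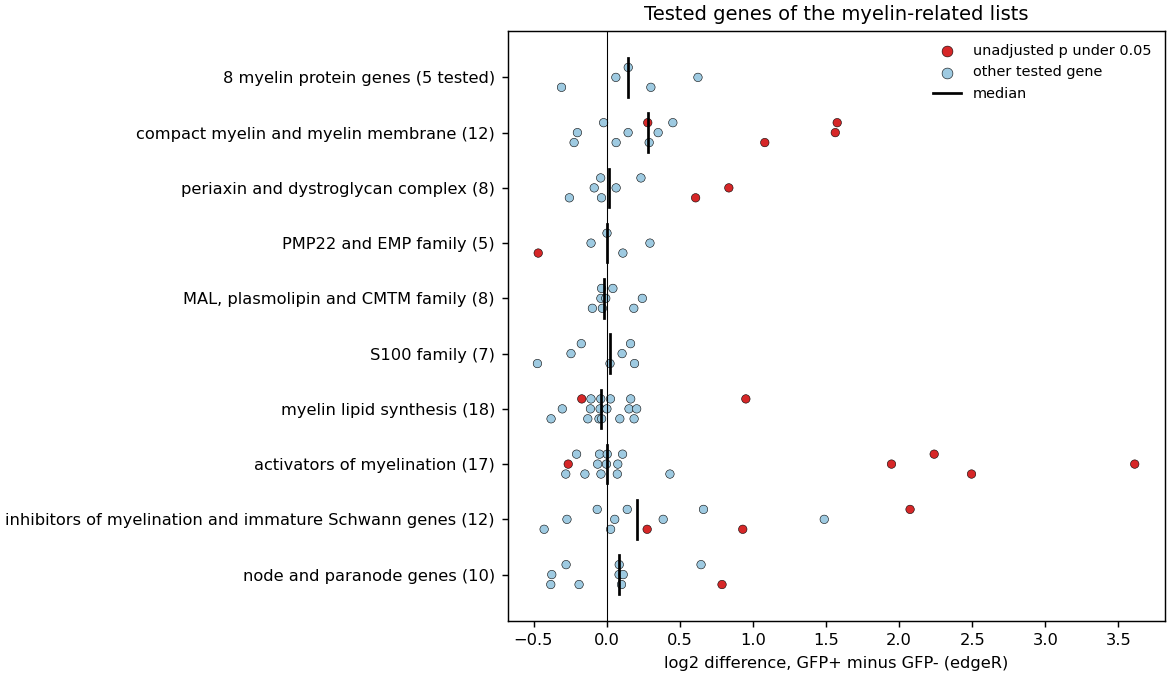
Log2 difference, GFP+ minus GFP- cells, of each tested gene (horizontal axis) in the 8 myelin protein genes and 9 related lists, with the number tested in brackets, genes at an unadjusted p under 0.05 in red and list medians as black bars. The 5 tested myelin protein genes lie between -0.31 and 0.62, and Sox10 lies furthest to the right at 3.61 among the activators of myelination.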

How the data were processed

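Each library's deposited table holds whole-number read counts for every gene. STAR 2.4.2.8 and mouse build mm10 are named in the submitters' processing notes. Annotation and strandedness are not stated in the labels. Column 4 (second strand setting) was used, since it took 96.9% to 97.1% of stranded gene reads. The 4 summary lines, 21.3% to 24.3% of reads, were left out of totals and tests. Symbols, positions and exon lengths came from GENCODE vM21, which matched 46005 of 46517 identifiers. CPM were computed from library totals, without TMM.

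Counts were filtered with filterByExpr, scaled by TMM and tested with glmQLFTest of edgeR 4.0.16 under R 4.3.3, with the model letter as a block, two-sided and Benjamini-Hochberg adjusted over 13986 genes. DESeq2 1.42.0 was an alternative. Standard errors came from the F statistic. The letter pairs libraries of 1 tumour model, and the deviations of each pair from the means of the populations had correlations of 0.628 to 0.867. Pair log2 differences in sign-flip tests used a prior count of 2. Counting intervals are exact (Clopper-Pearson, 95%) and cover counting error only, since reads are not independent molecules. The fit was tested on simulated counts.

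The 8 genes and the lists were chosen with earlier results of these data known. Named are the 8 genes, the 4 genes of smallest p of each myelin-related list (all of a list of 6 or fewer), except some genes that are not reported here, and the 3 genes most like each tested gene. Of the marker lists, sums are given, and genes only where they stand beside a result. Other genes were named after their values were seen.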

Additional observations from a re-analysis of the deposited data

Results flagged for a closer look

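Of 24 groups of 5 values (CPM of each gene in each population, and pair differences), 2 held a single value far from the other 4 by Dixon's Q. Its chance rate of about 1 in 20 is for independent, normally distributed values. Counts with many zeros, and groups that share libraries, do not meet that condition. Mal in GFP- cells was at 0.0453 CPM in model B and 0 in the other 4, which is 1 read. Cnp in GFP- cells was at 23.8 CPM in model C and 11.5 to 14.9 CPM in the other 4 models, and GFP+ cells of model C also had the highest Cnp.

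Reads on the strand opposite to the gene, which the comparisons did not use, were more frequent at 3 genes than in the libraries as a whole (2.92% to 3.14%). At Cnp they were 60.3% of stranded reads, and its exons share 154 bases with those of Dnajc7 on the opposite strand, a gene with 179 CPM in GFP+ libraries and 178 CPM in GFP- libraries on average. At Pllp they were 8.96%, where the antisense gene Gm45767 shares 1128 exon bases. At S100b they were 14.4%, or 16 reads against 95 on the gene's own strand.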

How the results depend on the processing

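The number of genes called by edgeR was 0 with TMM, RLE size factors, library totals, the stricter filter, unstranded counts, without the replicate block and without any 1 pair. It was 47 of 25762 with no filter on low counts and 195 with DESeq2, with 0 of the 8 myelin protein genes called in the first and 0 of the 5 tested in the second. Unadjusted p-values under 0.05 numbered 1257, against 190 without the replicate block, 793 without pair B and 796 without pair D. None of the 5 tested genes passed the threshold in any alternative fit, which says little where edgeR called 0 genes over the whole table. For S100b, Mal and Mag the alternatives are mean pair differences without a p-value, judged by direction alone. For the 8 genes, 82 of 84 alternative values kept their direction. The exceptions were Mbp, at -0.22 without pair E within a range of -0.22 to 0.23 over left-out pairs, and Mag, at 0.39 without pair D within a range of -0.32 to 0.39. Over left-out pairs, the values of Pmp22 ran from -0.46 to -0.23, of Cnp from 0.19 to 0.37, of Prx from 0.10 to 0.18 and of Pllp from 0.13 to 1.06. The fit with the pairs as a block changed no call against the fit without it. Depth limits S100b, Mal and Mag, where the floor of 3 reads is 0.145 to 0.188 CPM in the libraries with 0 reads.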

Other observations

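The levels of 3 further genes, named after their values were seen, were uneven between models. Gldn encodes gliomedin, which Schwann cell processes deposit at the node of Ranvier. The GFP+ library of model B had 705 CPM and its GFP- library 734 CPM, the GFP+ library of model D had 37.0 CPM and its GFP- library 119 CPM, and both libraries of models A, C and E had 2.32 CPM or less. Its log2 difference between populations was -0.02 (SE 0.54). Cldn19, a claudin of peripheral myelin, had 5.97 CPM in the GFP+ and 0.991 CPM in the GFP- library of model C and 0.0626 CPM or less in the other 8 libraries. Omg, the oligodendrocyte myelin glycoprotein gene, had 2.61 CPM in the GFP+ and 0.181 CPM in the GFP- library of model B and 0.125 CPM or less elsewhere. With 1 pair per model these values carry no test.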
